A study of Mus musculus with 16 samples.

Results

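Slc30a10, which encodes a manganese exporter of the hepatocyte membrane, was examined in mouse liver together with 5 other genes that move or bind divalent metals: Slc30a1, Slc39a8, Slc39a14, Mt1 and Mt2. Members were taken by gene symbol from probe sets that the platform annotation gives to 1 gene alone, and where a gene has several, the one with the highest mean over the arrays stands for it. Each of the 6 genes had exactly 1 such probe set, so that 6 of the 19938 genes represented in this way are described. All 6 passed the filter on dim signal, since they reached the 40th percentile of the array (a log2 signal of 7.16 to 7.44) on each of the 16 arrays. Slc30a10 was selected on its signal, which differed between genotypes in these same arrays, so its levels and differences are given as a description, with standard errors and no p-value.

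Total RNA of whole liver was hybridised to 16 arrays, 4 for each of 4 genotypes of mice of strain 129. The genotypes were Rassf1a-/-, which lacks both copies of the Rassf1a isoform of Rassf1, a gene silenced in many tumours; Sav1+/-, which has lost 1 copy of the gene for the Hippo pathway adaptor Sav1; the combined genotype Rassf1a-/- Sav1+/-; and wild type. The sources used here do not state age, sex, treatment, time of collection or the cell type in which each allele was lost, nor that each sample came from an animal of its own. P-values therefore measure the spread between these samples.

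Manganese and zinc enter and leave cells through 2 large families of carriers. ZIP proteins (Slc39) bring metal into the cytosol, and ZnT proteins (Slc30) carry it out of the cytosol or into vesicles. In the liver, SLC39A14 takes up manganese from blood, SLC30A10 passes it into bile, and SLC39A8 recovers manganese from bile. SLC30A1 is the zinc exporter of the plasma membrane, and the metallothioneins Mt1 and Mt2 are small cysteine-rich proteins that bind zinc and copper. Transcription of Mt1, Mt2 and Slc30a1 is raised by zinc through the factor MTF1, which binds short DNA sequences called metal response elements, and the metallothioneins also respond to glucocorticoids.

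Because metal response elements are the sequence feature through which metallothionein genes and Slc30a1 are known to respond, the 300-base RefSeq promoter windows (build GRCm38.p6, mouse) of the members were searched on both strands for the core letters TGCACNC or TGCGCNC. Of the 6 members, 5 have a window and Slc39a14 has none in the table used. The windows of Slc30a10, Slc30a1, Mt1 and Mt2 are shown here, 5′ to 3′ on the plus strand, with the matches in capitals. They lie at chr1:185454598-185454897 (Slc30a10), chr1:191906531-191906830 (Slc30a1), chr8:94178839-94179138 (Mt1) and chr8:94172368-94172667 (Mt2), and each spans the annotated start of its gene.
Slc30a10: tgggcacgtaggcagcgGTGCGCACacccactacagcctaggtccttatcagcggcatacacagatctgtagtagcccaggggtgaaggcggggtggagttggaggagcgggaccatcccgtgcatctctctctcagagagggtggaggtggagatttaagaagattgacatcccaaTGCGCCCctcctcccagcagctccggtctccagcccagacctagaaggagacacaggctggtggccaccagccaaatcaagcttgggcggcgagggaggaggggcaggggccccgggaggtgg
Slc30a1: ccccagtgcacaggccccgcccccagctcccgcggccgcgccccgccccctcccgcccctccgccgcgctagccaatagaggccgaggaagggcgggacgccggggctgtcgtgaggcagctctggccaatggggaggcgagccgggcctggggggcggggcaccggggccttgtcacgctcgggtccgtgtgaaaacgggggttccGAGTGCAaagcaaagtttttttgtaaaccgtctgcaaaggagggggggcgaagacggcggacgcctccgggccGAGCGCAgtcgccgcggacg
Mt1: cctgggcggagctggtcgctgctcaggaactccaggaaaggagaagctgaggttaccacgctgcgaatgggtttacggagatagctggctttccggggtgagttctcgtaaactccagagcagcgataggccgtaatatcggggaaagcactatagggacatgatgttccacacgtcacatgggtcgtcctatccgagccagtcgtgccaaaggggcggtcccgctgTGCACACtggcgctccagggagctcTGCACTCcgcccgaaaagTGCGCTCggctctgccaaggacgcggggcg
Mt2: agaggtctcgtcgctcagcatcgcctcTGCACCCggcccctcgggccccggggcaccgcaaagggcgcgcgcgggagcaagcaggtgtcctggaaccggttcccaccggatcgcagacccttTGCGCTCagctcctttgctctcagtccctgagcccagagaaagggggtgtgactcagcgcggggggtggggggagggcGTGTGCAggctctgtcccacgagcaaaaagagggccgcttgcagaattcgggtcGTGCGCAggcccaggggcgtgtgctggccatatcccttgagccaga

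The Mt2 window held 4 matches and the Mt1 window 3, all in separate places. Those 2 genes are neighbours, with 5315 bases and 0 annotated genes between them. In the Slc30a10 window there were 3 matches, of which 2 overlap on opposite strands at -233 and -232 from the start and 1 stands at -73, so they form 2 runs of letters. The Slc30a1 window had 2 matches, in separate places. Of the 2 windows of Slc39a8, at chr3:135825029-135825328 and chr3:135825407-135825706, the first held 0 matches and the second 1. Among all 32851 windows of this length, 25.7% held at least 1 match, 7.11% at least 2, 1.97% at least 3 and 0.518% at least 4. The E-box CACGTG, the letters bound by the CLOCK and ARNTL pair, was found in 7.15% of all windows and, among the members' windows, in the second window of Slc39a8. These matches describe letters in a window and are not measured binding sites.

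Signals are given as the deposited log2 values. A gene is called changed where its adjusted p (limma, Benjamini-Hochberg over 13152 genes) is under 0.05, with 4 arrays a genotype. Array medians over all 35556 probe sets lay between 7.20 and 7.51. Sav1, examined as a check on the labels, averaged 8.61 ± 0.14 in Rassf1a-/-, 7.64 ± 0.37 in Sav1+/-, 7.65 ± 0.27 in Rassf1a-/- Sav1+/- and 8.53 ± 0.11 in wild-type livers (log2 signal, SD, n = 4 each), and the Rassf1 probe set cannot check the loss of 1 isoform. All 7 hepatocyte markers passed the filter, and the log2 of their summed unlogged signals lay between 16.2 and 16.5 on every array. Taken in the same way, the 9 Kupffer cell markers stood at 12.90 to 13.96 in Rassf1a-/-, 13.26 to 14.55 in Sav1+/-, 13.56 to 14.26 in Rassf1a-/- Sav1+/- and 13.21 to 13.86 in wild-type livers. No gene of the marker lists for other liver cell types passed the limma test in a comparison of genotypes.

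The arrays also differed in their Y-linked signal, and this touches the metallothioneins below. The mean log2 signal of the Y-linked genes Eif2s3y, Kdm5d and Uty lay between 8.87 and 9.18 on 5 arrays and between 2.09 and 4.17 on the other 11, with none in between. The 5 arrays were replicate 2 of Rassf1a-/-, replicates 3 and 4 of Sav1+/- and replicates 1 and 2 of Rassf1a-/- Sav1+/-. They include no wild-type array. For the members and for the listed genes whose calls depended on them, values or calls on the 11 other arrays are given as well.

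Slc30a10 signal was higher in livers without Rassf1a, whatever their Sav1 genotype. Its probe set (10352548) read 10.56, 10.48, 10.33 and 10.35 in Rassf1a-/- livers, 8.96, 9.74, 9.76 and 9.71 in Sav1+/- livers, 10.36, 11.01, 10.59 and 10.39 in Rassf1a-/- Sav1+/- livers, and 8.86, 9.58, 9.28 and 8.87 in wild-type livers (log2 signal). The 8 arrays without Rassf1a (10.33 to 11.01) all lay above the 8 arrays with it (8.86 to 9.76). A separation of that kind in the same direction was found for 0.601% of the 13152 genes tested, and nothing is read from it here because this pattern led to the choice of the gene. In RNA of whole liver, more cells of a type and more RNA per cell cannot be told apart.

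In order of their means, Rassf1a-/- Sav1+/- livers stood at 10.59 ± 0.30, Rassf1a-/- livers at 10.43 ± 0.11, Sav1+/- livers at 9.54 ± 0.39 and wild-type livers at 9.15 ± 0.35 (log2 signal, SD, n = 4 each). The first pair of neighbours in this order differed by 0.16 with a 95% interval of -0.27 to 0.59, and their arrays overlapped. Likewise, Sav1+/- and wild-type livers differed by 0.39 (interval -0.04 to 0.83), with overlapping arrays. Between Rassf1a-/- and Sav1+/- livers no array overlapped. The share of all genes with such a separation was not counted. Nothing is read from it here, because the gene was chosen on its signal in these arrays.

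Against wild type, the log2 difference of Slc30a10 was 1.28 ± 0.21 (SE) in Rassf1a-/- livers, or 2.43-fold, and 1.44 ± 0.21 in Rassf1a-/- Sav1+/- livers, or 2.72-fold. These 2 comparisons share the wild-type arrays. A comparison that shares no array with the first, Rassf1a-/- Sav1+/- against Sav1+/-, gave 1.05 ± 0.21 (2.07-fold). It is not an independent check, because the gene was chosen on its signal in all these arrays and the fit shares 1 estimate of spread. Averaged over both Sav1 states the difference was 1.17 ± 0.15 (2.24-fold). The interaction of the Rassf1a and Sav1 states was -0.23 ± 0.29, with an interval of -0.85 to 0.38.

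With the 11 arrays of low Y-linked signal alone, the difference from wild type was 1.27 in Rassf1a-/- and 1.34 in Rassf1a-/- Sav1+/- livers, close to the values over all arrays, and 0.20 in Sav1+/- livers. When each of the 16 arrays was left out in turn, the difference stayed between 1.19 and 1.43 for Rassf1a-/- and between 1.30 and 1.59 for Rassf1a-/- Sav1+/-. The small step between the last genotype and Rassf1a-/- rested on replicate 2 of Rassf1a-/- Sav1+/-, without which it was 0.02. In Sav1+/- livers, the lone low array was replicate 1, and without it the difference from wild type was 0.59.

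**Figure D1:**
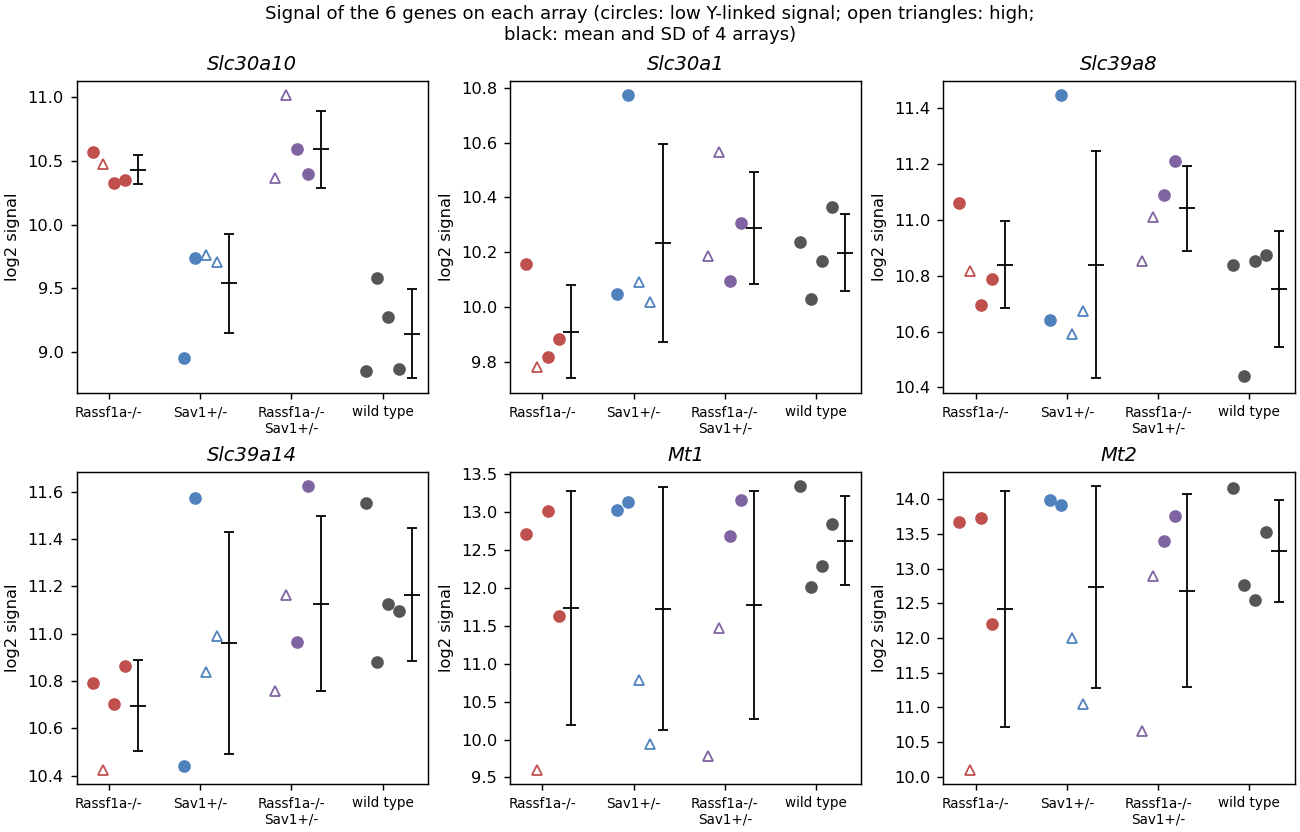
Log2 signal (vertical axes, each with its own range) of the 6 genes on every array, by genotype along the horizontal axis, with the mean and SD of 4 arrays in black and arrays of high Y-linked signal as open triangles. For Slc30a10 the 8 arrays without Rassf1a lie at 10.33 to 11.01 and the other 8 at 8.86 to 9.76, while for Mt1 and Mt2 the open triangles lie low within each genotype.

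The hepatic importer of manganese, Slc39a14 (probe set 10421309), did not pass the test in any comparison. Its log2 signal was 10.79, 10.43, 10.70 and 10.86 in Rassf1a-/- livers, 10.44, 11.57, 10.84 and 10.99 in Sav1+/- livers, 10.76, 11.16, 10.96 and 11.62 in Rassf1a-/- Sav1+/- livers, and 11.55, 10.88, 11.13 and 11.09 in wild-type livers. The 4 Rassf1a-/- arrays all lay below the 4 wild-type arrays, by a narrow margin between the highest of one group and the lowest of the other. Such a separation in that direction occurred for 4.32% of all genes tested. The difference of -0.47 ± 0.23 (SE) had an adjusted p of 0.485 in limma and an unadjusted p of 0.0530. In Rassf1a-/- Sav1+/- livers the difference from wild type was -0.04 ± 0.23 (adjusted p = 0.966), and the arrays overlapped. The interaction, which asks whether the 2 Rassf1a differences are unequal, was 0.64 ± 0.32 (adjusted p = 0.556).

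Slc39a8 (probe set 10496324), the carrier that recovers manganese from bile, read 11.06, 10.82, 10.69 and 10.79 in Rassf1a-/- livers, 10.64, 11.45, 10.59 and 10.67 in Sav1+/- livers, 10.85, 11.01, 11.09 and 11.21 in Rassf1a-/- Sav1+/- livers, and 10.84, 10.44, 10.85 and 10.87 in wild-type livers (log2 signal). All groups overlapped with wild type. The largest of its 3 differences from wild type was 0.29 ± 0.18 (SE) in Rassf1a-/- Sav1+/- livers, with an interval of -0.09 to 0.66 and an adjusted p of 0.512. In Rassf1a-/- livers the difference was 0.09 ± 0.18 (adjusted p = 0.854).

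For the zinc exporter Slc30a1 (probe set 10352777), log2 signals were 10.16, 9.78, 9.82 and 9.88 in Rassf1a-/- livers, 10.05, 10.77, 10.09 and 10.02 in Sav1+/- livers, 10.19, 10.57, 10.10 and 10.31 in Rassf1a-/- Sav1+/- livers, and 10.24, 10.03, 10.17 and 10.36 in wild-type livers. The Rassf1a-/- arrays, at 9.78 to 10.16, overlapped with the wild-type arrays, at 10.03 to 10.36. The difference from wild type was -0.29 ± 0.17 (SE, adjusted p = 0.579) in Rassf1a-/- and 0.09 ± 0.17 (adjusted p = 0.877) in Rassf1a-/- Sav1+/- livers. Rassf1a-/- Sav1+/- against Rassf1a-/- livers gave 0.38 ± 0.17, with an unadjusted p of 0.0376 and an adjusted p of 0.311.

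Among the 5 members other than Slc30a10, 0 passed at an adjusted p under 0.05 in each of the 8 comparisons fitted with limma, and the 0.0376 just given was the only unadjusted p under 0.05. Over all genes, the share called was 0.7% for Rassf1a-/-, 0% for Sav1+/- and 0.821% for Rassf1a-/- Sav1+/- against wild type, so that none called among 5 is near this background. The share was 2.23% for the averaged Rassf1a difference, 0.836% for Rassf1a-/- Sav1+/- against Sav1+/-, 0.0076% for the same genotype against Rassf1a-/-, 0.0228% for the averaged Sav1 difference and 0% for the interaction. At an unadjusted p under 0.05, Sav1+/- against wild type had 1204 genes and the interaction 1236. The intervals bound what these arrays could have missed: for Slc39a14 in Rassf1a-/- livers the interval ran from -0.95 to 0.01, and for Slc30a1 from -0.64 to 0.07.

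**Figure D2:**
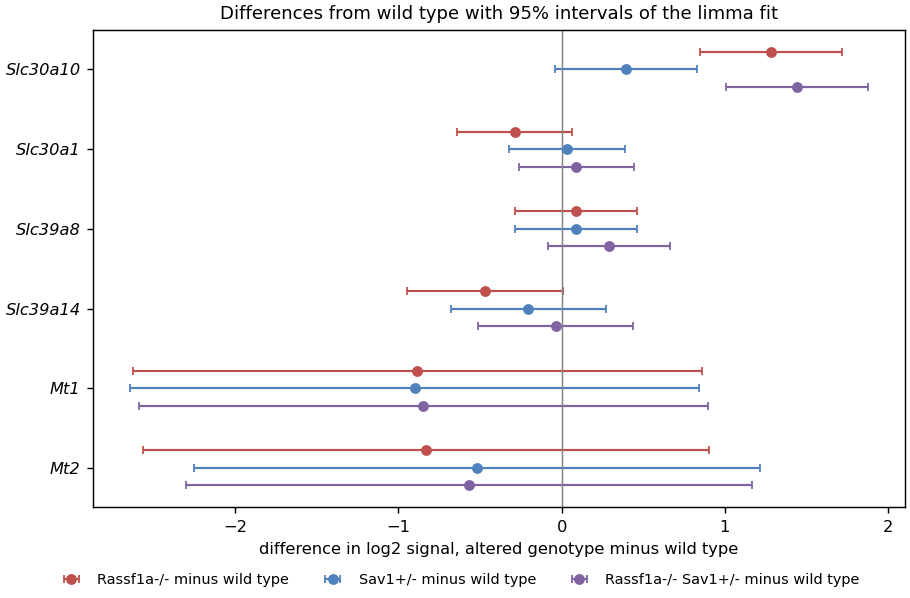
Difference in log2 signal from wild type (horizontal axis) for the 6 genes, with points for the limma estimate and bars for its 95% interval, in the order Rassf1a-/-, Sav1+/- and Rassf1a-/- Sav1+/- from top to bottom within each gene. Slc30a10 stands at 1.28, 0.39 and 1.44, and the bars of Mt1 and Mt2 are several times wider than those of the transporters.

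Mt1 (probe set 10574027) and Mt2 (probe set 10574023) varied widely between arrays of 1 genotype. The SD within genotypes was 1.38 for Mt1 and 1.37 for Mt2, against 0.31 for Slc30a10. Means of 4 arrays vary less than single arrays, and the within-genotype SD divided by the square root of 4 was 0.69 for Mt1 and 0.68 for Mt2. The SD of the 4 genotype means was 0.44 and 0.35, below those values. Mt1 read 12.71, 9.60, 13.02 and 11.63 in Rassf1a-/- livers, 13.03, 13.14, 10.79 and 9.94 in Sav1+/- livers, 9.79, 11.47, 12.69 and 13.16 in Rassf1a-/- Sav1+/- livers, and 13.34, 12.02, 12.29 and 12.85 in wild-type livers (log2 signal). Each of the 3 mutant genotypes held arrays well below the wild-type range and arrays within it. The Mt2 signals were 13.67, 10.10, 13.72 and 12.20 in Rassf1a-/- livers, 13.98, 13.91, 12.00 and 11.05 in Sav1+/- livers, 10.67, 12.90, 13.40 and 13.77 in Rassf1a-/- Sav1+/- livers, and 14.16, 12.77, 12.55 and 13.53 in wild-type livers.

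No genotype difference of the metallothioneins passed the test. Against wild type, Mt1 differed by -0.89 ± 0.83 in Rassf1a-/- livers, by -0.90 ± 0.83 in Sav1+/- livers and by -0.85 ± 0.83 in Rassf1a-/- Sav1+/- livers (log2, SE), with adjusted p of 0.708, 0.806 and 0.720 in limma. For Mt2 the differences were -0.83, -0.52 and -0.57, each ± 0.82, with adjusted p of 0.723, 0.910 and 0.833. The intervals are wide, running for Mt1 in Rassf1a-/- livers from -2.63 to 0.86.

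Within each mutant genotype, the lowest arrays were those of high Y-linked signal. Replicate 4 of Rassf1a-/-, an array of low Y-linked signal, also lay below every wild-type array for both genes, and replicate 2 of Rassf1a-/- Sav1+/-, an array of high Y-linked signal, lay within the wild-type range for Mt2. In Rassf1a-/- livers the array of high Y-linked signal read 9.60 for Mt1, against 11.63 to 13.02 on the 3 arrays of low Y-linked signal. In Sav1+/- livers the corresponding values were 9.94 and 10.79, against 13.03 and 13.14. In Rassf1a-/- Sav1+/- livers they were 9.79 and 11.47, against 12.69 and 13.16. Thus every array of high Y-linked signal lay below every array of low Y-linked signal in each of the 3 genotypes that hold both, for Mt1 and for Mt2, and 3.92% of all genes tested showed that pattern in that direction.

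A comparison of the Y-linked classes within genotypes, added after these values had been seen, gave a log2 difference (high minus low) of -2.60 ± 0.31 (SE) for Mt1, a 6.05-fold lower signal (adjusted p = 2.08e-05 in limma). The difference rests on 5 arrays of high and 7 of low Y-linked signal in the 3 mutant genotypes, and the 4 wild-type arrays add only to the estimate of spread. Without them the difference was the same, with an adjusted p of 7.45e-05. Mt2 was 5.21-fold lower, with a difference of -2.38 ± 0.39 (adjusted p = 0.000755). In the same fit 4.73% of all genes were called, 1.81% higher and 2.92% lower. The other 4 members were not called: Slc30a10 differed by 0.23 ± 0.17 (adjusted p = 0.674), Slc30a1 by -0.11 ± 0.14 (0.886), Slc39a8 by -0.24 ± 0.14 (0.550) and Slc39a14 by -0.25 ± 0.18 (0.672). With any 1 array left out, Mt1 lay between -2.87 and -2.41 and Mt2 between -2.77 and -2.11. Both passed in all 16 of these fits.

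On the 11 arrays of low Y-linked signal, Mt1 averaged 12.45 in Rassf1a-/- (3 arrays), 13.08 in Sav1+/- (2 arrays), 12.92 in Rassf1a-/- Sav1+/- (2 arrays) and 12.63 in wild-type livers (4 arrays). The differences from wild type were then -0.17, 0.46 and 0.30, so the sign turned in the 2 genotypes with 1 Sav1 copy. Mt2 differed from wild type by -0.06, 0.70 and 0.33 on the same arrays. The labels do not give the sex of the animals, and its part in these values was not tested.

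**Figure D3:**
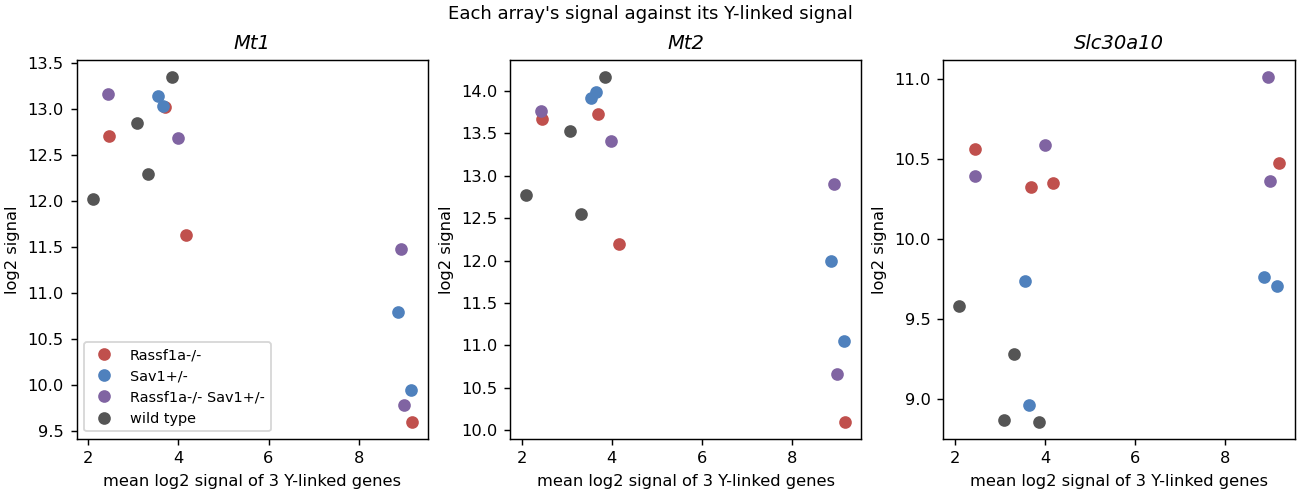
Log2 signal of Mt1, Mt2 and Slc30a10 (vertical axes) on each array against the mean log2 signal of 3 Y-linked genes (horizontal axis), coloured by genotype. The 5 arrays at 8.87 to 9.18 on the horizontal axis hold the lowest Mt1 values, 9.60 to 11.47, whereas their Slc30a10 values lie with those of their own genotype.

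The members fell into 3 patterns across arrays, which were not fully separate. Mt1 and Mt2 moved together, with Pearson r = 0.98 over the 16 arrays and the same value after genotype means were subtracted. Slc30a1, Slc39a8 and Slc39a14 correlated at r = 0.69 (Slc30a1 with Slc39a8), 0.72 (Slc30a1 with Slc39a14) and 0.60 (Slc39a8 with Slc39a14), and at 0.82, 0.65 and 0.74 after the genotype means were subtracted. Replicate 2 of Sav1+/- was the highest Sav1+/- array for all 3 of these genes. With Mt1 and Mt2, these 3 genes correlated at 0.34 to 0.47, and at 0.41 to 0.51 after genotype means were subtracted. Slc30a10 correlated with the other 5 at -0.32 to 0.32. These coefficients are descriptions of 16 arrays that also share array-wide signal, and no p is attached to them.

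Over the 16 arrays, the genes with a pattern most like Slc30a10 among the 13152 tested were Tubb2b (r = 0.96), a beta tubulin, Asap2 (0.95), a GTPase-activating protein, Clock (0.94) and Arntl (0.94), whose products form the core activator of the circadian clock, and Gldc (0.93), of the glycine cleavage system. Wee1, a kinase of the cell cycle (-0.94), the clock-controlled transcription factor Tef (-0.91) and the deubiquitinase Usp2 (-0.91) had the most opposite pattern. Tubb2b, Asap2 and Arntl were dim in livers with Rassf1a, where their genotype means of 6.71 to 7.20 lay near or under the filter level. The arrays form 2 groups by Rassf1a state, so r was also taken within each: over the 8 arrays without Rassf1a it lay between 0.39 and 0.86 for the 5 genes of like pattern, and over the 8 arrays with it between 0.59 and 0.88.

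After genotype means were subtracted, the 5 highest were Arntl (0.86), Top3b (0.83), Hexim1 (0.82), Gpd1 (0.82) and Tubb2b (0.82). Arntl reached 0.39 within the 8 arrays without Rassf1a and 0.76 within the 8 arrays with it. For Wee1 the values were -0.92 and -0.67. Wee1 was dim in livers without Rassf1a, with means of 7.45 in Rassf1a-/- and 7.02 in Rassf1a-/- Sav1+/- livers, near or under the filter level.

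Mt1 was most like Mt2, and after it the cytochromes P450 Cyp3a16 (r = 0.93) and Cyp2c39 (0.92). Cyp3a16 ranged from 1.63 to 12.03 in Rassf1a-/- livers, against 11.44 to 11.92 in wild-type livers (log2 signal), a wider spread within the mutant genotype than that of Mt1.

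Genes of the circadian clock also differed between genotypes. Of 14 clock genes tested, 2 rose and 7 fell in Rassf1a-/- livers, and 3 rose and 7 fell in Rassf1a-/- Sav1+/- livers, both against wild type. Over all genes, 0.433% rose and 0.266% fell in Rassf1a-/- livers, and 0.335% rose and 0.487% fell in Rassf1a-/- Sav1+/- livers. On the 11 arrays of low Y-linked signal the counts were 2 and 7 in Rassf1a-/- livers but 1 and 1 in Rassf1a-/- Sav1+/- livers, where fewer arrays were left and 10 of the 14 differences were negative, as over all arrays.

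Arntl and Clock rose in both genotypes, and Nr1d1, a repressor of Arntl, in Rassf1a-/- Sav1+/- livers (0.90 ± 0.19, SE, adjusted p = 0.0363, and 0.350 on arrays of low Y-linked signal). Clock averaged 10.85 ± 0.18 in Rassf1a-/- livers, 10.19 ± 0.56 in Sav1+/- livers, 10.99 ± 0.20 in Rassf1a-/- Sav1+/- livers and 9.62 ± 0.16 in wild-type livers (log2 signal, SD, n = 4 each). Its difference from wild type was 1.23 ± 0.21 (SE, adjusted p = 0.00782) in Rassf1a-/- livers and 1.37 ± 0.21 (adjusted p = 0.00467, and 0.139 on arrays of low Y-linked signal) in Rassf1a-/- Sav1+/- livers. Arntl averaged 10.08 and 9.72 in these 2 genotypes, against 6.71 in wild-type livers, which lies under the filter level, so no size is given for its rise. The genes that fell in both were the repressors Per1, Per2, Per3 and Ciart, the transcription factors Dbp and Tef, and Usp2. In Rassf1a-/- Sav1+/- livers only Usp2 of these stayed called on arrays of low Y-linked signal. The others had an adjusted p of 0.0678 to 0.228 there. Per2 averaged 7.71 ± 0.58 in Rassf1a-/- livers and 9.93 ± 0.26 in wild-type livers (SD, n = 4 each, adjusted p = 0.000483 in limma). Usp2 differed from wild type by -3.90 in Rassf1a-/- and by -3.57 in Rassf1a-/- Sav1+/- livers, and the second difference was -3.13 (adjusted p = 0.0128) on arrays of low Y-linked signal. Averaged over both Sav1 states, Nfil3 rose by 0.82 ± 0.20 (SE, adjusted p = 0.0389) and Nr1d2 fell by 0.67 ± 0.13 (adjusted p = 0.00876) in livers without Rassf1a. On arrays of low Y-linked signal these adjusted p were 0.0676 and 0.113. Nfil3 passed in 5 of the 16 fits that leave out 1 array, and Nr1d2 in all 16. The labels say nothing of the time of day of collection, and its part in the Slc30a10 difference was not tested.

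**Figure D4:**
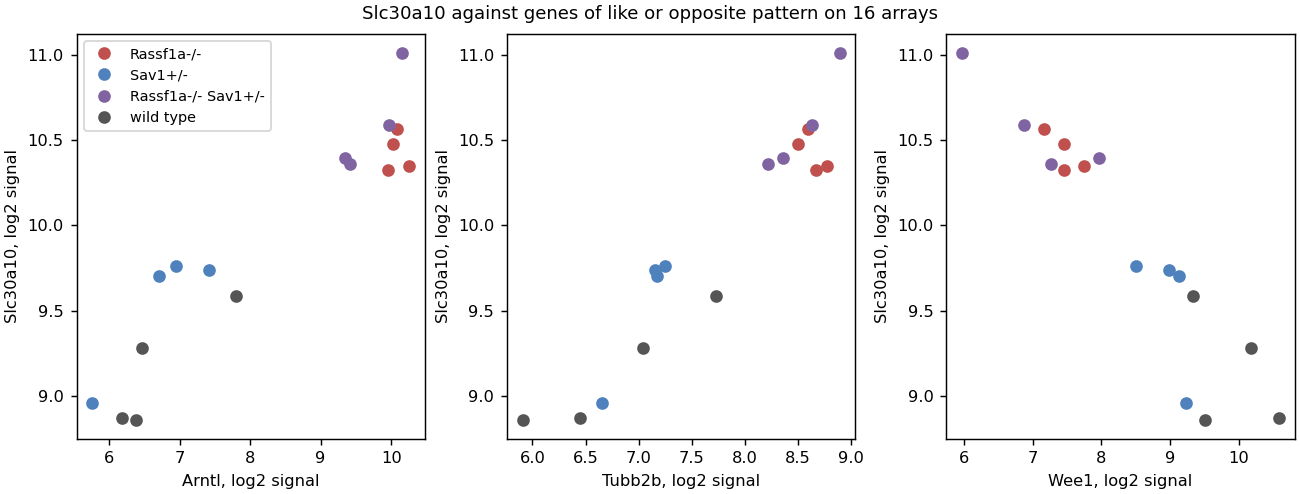
Log2 signal of Slc30a10 (vertical axes) against that of Arntl, Tubb2b and Wee1 (horizontal axes) on 16 arrays, coloured by genotype. The 8 arrays without Rassf1a form a group apart from the 8 with it in each panel, and the coefficients over all arrays were 0.94, 0.96 and -0.94.

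Most other genes of metal transport and storage did not pass the test between genotypes. Of 8 other Slc30 genes, 6 were bright enough to test, and limma called 0 in any of the 8 comparisons. At an unadjusted p under 0.05 there were 0 in Rassf1a-/- livers, 2 in Sav1+/- livers and 0 in Rassf1a-/- Sav1+/- livers against wild type. Their median difference was -0.04 in Rassf1a-/- and 0.17 in Rassf1a-/- Sav1+/- livers, against medians over all genes of -0.01 and 0.05. Against wild type, the smallest unadjusted p in livers without Rassf1a was 0.141. It belonged to Slc30a4 (0.32 ± 0.21, SE) in Rassf1a-/- Sav1+/- livers. Between Rassf1a-/- Sav1+/- and Sav1+/- livers, 2 of these genes had an unadjusted p under 0.05 in limma. They were Slc30a6 (0.39 ± 0.12) and Slc30a9 (-0.40 ± 0.16). For the Rassf1a difference averaged over both Sav1 states, 1 gene did, Slc30a6 (0.18 ± 0.08).

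Of 12 other Slc39 importers, 8 were tested, and 1 was called. Slc39a4, the intestinal zinc importer mutated in acrodermatitis enteropathica in humans, averaged 11.20 ± 0.04 in Rassf1a-/- Sav1+/- livers and 10.39 ± 0.23 in Sav1+/- livers (log2 signal, SD, n = 4 each). It was 0.81 ± 0.14 higher (SE, adjusted p = 0.0132) in that comparison. The adjusted p was 0.217 on arrays of low Y-linked signal and 0.157 with the compared genotypes alone. As an average over both Sav1 states, Slc39a4 was 0.41 ± 0.10 higher without Rassf1a (adjusted p = 0.0461, and 0.205 on arrays of low Y-linked signal). That call passed in 4 of the 16 fits that leave out 1 array. Over all genes, 0.836% were called in the first of these comparisons and 2.23% in the averaged one. Against wild type, Sav1+/- livers differed by -0.52 (adjusted p = 0.250) and Rassf1a-/- Sav1+/- livers by 0.29 (adjusted p = 0.405), while Rassf1a-/- livers, at 10.92 ± 0.26, differed from wild type, at 10.91 ± 0.11, by 0.01 (adjusted p = 0.982). In Sav1+/- against wild-type livers 8 of the 8 tested importers had a negative difference, with a median of -0.29 against -0.02 over all genes, and 0 were called, with 3 at an unadjusted p under 0.05. Slc39a2, a zinc importer, differed by -0.60 ± 0.22 in Rassf1a-/- livers (adjusted p = 0.311).

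Among 7 other genes of manganese handling, limma called 0, with 1 at an unadjusted p under 0.05 in each of the 3 comparisons with wild type. The smallest p belonged to enzymes that use manganese. Arginase, Arg1, differed from wild type by -0.36 ± 0.13 in Rassf1a-/- Sav1+/- livers (adjusted p = 0.202), and glutamine synthetase, Glul, by -0.34 ± 0.15 in Rassf1a-/- livers (adjusted p = 0.420). For copper, 0 of 10 genes were called, with 1 in Rassf1a-/- livers, 1 in Sav1+/- livers and 2 in Rassf1a-/- Sav1+/- livers at an unadjusted p under 0.05 against wild type, and the mitochondrial copper chaperone Cox17 came nearest. It averaged 6.58 ± 0.51 in Rassf1a-/- Sav1+/- livers, under the filter level, and 7.58 ± 0.11 in Rassf1a-/- livers (SD, n = 4 each, adjusted p = 0.0687 in limma). Mtf1, the zinc-sensing regulator of metallothioneins, averaged 8.65 ± 0.13 in Rassf1a-/-, 8.51 ± 0.22 in Sav1+/-, 8.53 ± 0.26 in Rassf1a-/- Sav1+/- and 8.51 ± 0.16 in wild-type livers (log2 signal, SD, n = 4 each). Neither it nor Mt3 or Mt4 was called, and 0 of the 3 had an unadjusted p under 0.05 between genotypes.

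Of 16 iron genes, 1 was called between genotypes. Hjv, the hemojuvelin co-receptor that raises hepcidin transcription, averaged 11.34 ± 0.23 in Rassf1a-/- Sav1+/- and 10.61 ± 0.06 in Sav1+/- livers (log2 signal, SD, n = 4 each), which is 0.73 ± 0.15 higher (SE, adjusted p = 0.0352). The adjusted p was 0.491 on arrays of low Y-linked signal and 0.221 with the compared genotypes alone, and 7 of the 16 fits that leave out 1 array passed. Wild-type livers, at 11.02 ± 0.31, lay between them, with differences of -0.41 in Sav1+/- (adjusted p = 0.394) and 0.32 in Rassf1a-/- Sav1+/- livers (adjusted p = 0.380). As an average over both Sav1 states, Hjv was 0.52 ± 0.11 higher without Rassf1a (SE, adjusted p = 0.0153). That call passed in all 16 fits that leave out 1 array, but had an adjusted p of 0.251 on arrays of low Y-linked signal. In the averaged comparison 2.23% of all genes were called. Hepcidin itself, Hamp, differed from wild type by 0.01 ± 0.13 in Rassf1a-/- livers (adjusted p = 0.985). Its paralogue Hamp2 followed the Y-linked classes, with a difference of -4.93 ± 0.39 (adjusted p = 1.11e-07, high minus low within genotypes), and was not called between genotypes. Between those classes 4.73% of all genes were called. The 2 hepcidin genes are close copies of each other, and whether their probes share signal was not checked.

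**Figure D5:**
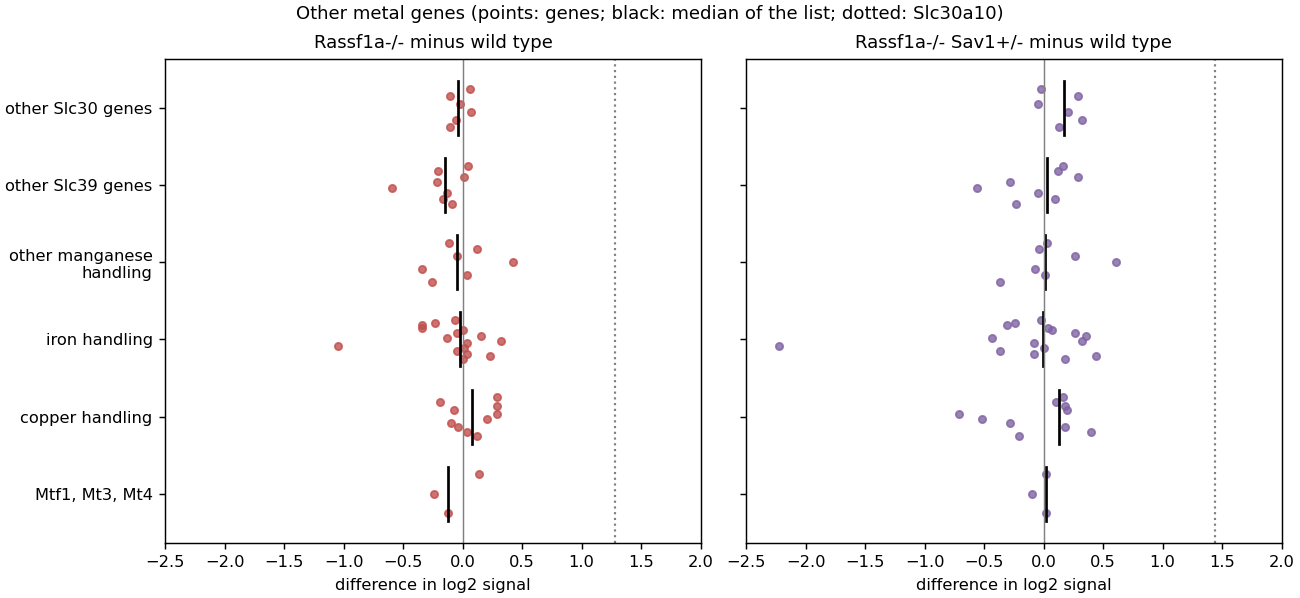
Difference in log2 signal from wild type (horizontal axis) of each tested gene in 6 lists of metal genes, for Rassf1a-/- (left) and Rassf1a-/- Sav1+/- livers (right), with the list median as a black bar and Slc30a10 as a dotted line at 1.28 and 1.44. No listed gene reaches the dotted line, and the lowest iron gene, at -1.05 and -2.22, is Hamp2.

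Regulators and stress programmes known to act on the members were also listed. Of 15 targets of hypoxia-inducible factors, factors that raise Slc30a10 transcription in human cells, 1 rose in Rassf1a-/- and in Rassf1a-/- Sav1+/- livers. That gene was Ndrg1, which averaged 10.47 ± 0.29 in Rassf1a-/-, 9.38 ± 0.23 in Sav1+/-, 10.41 ± 0.12 in Rassf1a-/- Sav1+/- and 8.81 ± 0.13 in wild-type livers (log2 signal, SD, n = 4 each). The median of the list stood at -0.08 and -0.01 against wild type in Rassf1a-/- and Rassf1a-/- Sav1+/- livers. Among all genes tested, 0.433% and 0.335% were called higher in these 2 comparisons. Pdk1, a kinase of pyruvate metabolism, was called between the Y-linked classes (-0.75 ± 0.14, high minus low, adjusted p = 0.00283). Of 10 glucocorticoid receptor targets, Per1, also a clock gene, fell by 1.85 ± 0.37 (SE, adjusted p = 0.0209) in Rassf1a-/- livers and by 1.70 ± 0.37 (adjusted p = 0.0368, and 0.228 on arrays of low Y-linked signal) in Rassf1a-/- Sav1+/- livers. Tsc22d3 fell by 0.56 ± 0.12 (adjusted p = 0.0185, and 0.280 on arrays of low Y-linked signal) as an average over both Sav1 states. Among all genes tested, 0.266% were called lower in Rassf1a-/- and 0.487% in Rassf1a-/- Sav1+/- livers against wild type. In the averaged Rassf1a difference the share called lower was 0.471%. Fkbp5 followed the Y-linked classes (-1.32 ± 0.19, high minus low, adjusted p = 0.000151). Between those classes 4.73% of all genes were called, so 1 call in a list of 15 or of 10 is little to go by. By sign, 9 of the 10 glucocorticoid receptor targets were below wild type in Rassf1a-/- and 7 in Rassf1a-/- Sav1+/- livers. Their medians were -0.39 and -0.20, against -0.01 and 0.05 over all genes. Between the Y-linked classes 8 of the 10 were negative (high minus low), with a median of -0.37. A part of glucocorticoids in the metallothionein values was not tested.

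No acute phase gene of 20, a class induced by inflammation along with metallothioneins and Slc39a14, was called between genotypes. Apcs and Il1rn were called between the Y-linked classes, at -0.60 ± 0.15 (adjusted p = 0.0265) and -0.94 ± 0.22 (adjusted p = 0.0154). These are 2 of 20, where 4.73% of all genes were called. At an unadjusted p under 0.05 there were 0 in each comparison with wild type. In Rassf1a-/- livers 19 of the 20 had a negative difference from wild type, with a median of -0.26 against -0.01 over all genes, and in Rassf1a-/- Sav1+/- livers 7 of 20 did, with a median of 0.12. The values of Slc39a14 beside these medians were -0.47 and -0.04. Of 8 NRF2 targets, genes of the response to oxidants, 0 were called between genotypes, with 1 in Rassf1a-/- and 2 in Rassf1a-/- Sav1+/- livers at an unadjusted p under 0.05 against wild type. Nqo1 and Osgin1 were called between the Y-linked classes, at -1.44 ± 0.19 (adjusted p = 8.4e-05) and 1.17 ± 0.20 (adjusted p = 0.00122), in opposite directions and beside the same 4.73% of all genes.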

How the data were processed

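Liver RNA of 4 genotypes, 4 samples each, was measured on Affymetrix whole-transcript arrays. The deposited values are log2 signals per probe set, which the authors obtained from Affymetrix Expression Console (the submitters' processing notes name that tool alone). How it corrected background and normalized is not stated in these sources. Precision is limited by how many arrays there are.

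Of 35556 probe sets, 21789 name 1 gene alone in the platform annotation, which can be old, and 21698 of these matched RefSeq (GRCm38.p6) by gene ID, with 0 symbols changed. Probe sets with several genes (1621) or none listed (12146) were left out. Dim probe sets were dropped, at least 4 arrays having to show a signal at or above the 40th percentile of that array, and the brightest stood for its gene, which left 13152 genes. These were fitted with limma 3.58.1 (R 4.3.3, two-sided) with a mean for each of 4 genotypes (12 residual degrees of freedom), in 8 comparisons, with Benjamini-Hochberg adjustment over all genes. The fit was tested on simulated data. Groups came from the labelled genotypes, and replicates are numbered in the order of deposit.

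The members, the gene lists and the naming rule (members, called list genes, otherwise the list genes with the smallest p, and the genes most like Slc30a10 or Mt1) were chosen with earlier results of these data known. Alternatives were other filters, scalings, probe set rules, variance models and sets of arrays. The comparison of Y-linked classes was added after the values were seen. Figures were drawn with matplotlib 3.10.9.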

Additional observations from a re-analysis of the deposited data

Results flagged for a closer look

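In groups of 4 arrays, an array was flagged where its gap to the nearest other array, as a share of the group's range, exceeded Dixon's 95% limit. Chance flags about 1 group in 20. Slc30a10 in Sav1+/- livers had such a gap at replicate 1 (0.929 of the range), which read 8.96 against 9.71 to 9.76 on the other Sav1+/- arrays. Replicate 2 of Sav1+/- stood above its group for Slc30a1 (0.905, at 10.77) and for Slc39a8 (0.906, at 11.45). For Slc39a8, replicate 2 of the wild type stood below its group (0.920, at 10.44).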

How the results depend on the processing

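No paired analysis was possible because samples carry no replicate number in their labels. The Slc30a10 difference kept its direction in all 8 comparisons, under every alternative and with any 1 array left out. As the gene was chosen on these same arrays, that is a description and not a check. Of the 5 other members, 0 were called in any genotype comparison under these settings. For Slc30a10, which has 1 probe set, the filters, probe set rules, trended fit and compared genotypes alone cannot change the estimate. Its intervals for Rassf1a-/- Sav1+/- against Rassf1a-/- (-0.27 to 0.59) and for the interaction (-0.85 to 0.38) include both signs. Mt1 and Mt2 stayed past the threshold between the Y-linked classes in all 8 alternatives, at -2.76 to -2.52 and -2.74 to -2.34 (adjusted p up to 0.000851 and 0.0101). Signs turned, for differences from wild type that were not called, as follows. With array weights, Slc30a1 and Slc39a8 stood at -0.067 and -0.041 in Sav1+/- livers. With the covariate for Y-linked signal, Mt1 and Mt2 stood at 0.52 and 0.80 in Sav1+/- livers and at 0.47 and 0.66 in Rassf1a-/- Sav1+/- livers, and Slc39a14 at 0.092 in the last. On arrays of low Y-linked signal alone they stood at 0.46 and 0.70, at 0.30 and 0.33, and at 0.13. With 1 array left out, signs turned within these ranges: Slc39a8 from -0.016 to 0.14 in Rassf1a-/- livers; Slc30a1 from -0.15 to 0.11, Slc39a8 from -0.12 to 0.17 and Mt2 from -0.93 to 0.047 in Sav1+/- livers; Slc30a1 from -0.0018 to 0.16, Slc39a14 from -0.20 to 0.093 and Mt2 from -0.93 to 0.10 in Rassf1a-/- Sav1+/- livers. The sign of Slc39a8 in Rassf1a-/- livers turned without replicate 2 of the wild type, and those of Slc30a1 and Slc39a8 in Sav1+/- livers without that array or replicate 2 of Sav1+/-. Slc30a1 between the Y-linked classes ranged from -0.20 to 0.021.

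The number of genes called moved far more. Rassf1a-/- against wild type had 92 calls, 898 with array weights, 190 with the compared genotypes alone, 146 with the Y-linked covariate and 59 on arrays of low Y-linked signal (54 to 128 with 1 array left out). Sav1+/- against wild type had 0, then 2 with the stricter filter (60th percentile), 3 with a trended robust fit and 7 with array weights (0 to 6). Rassf1a-/- Sav1+/- against wild type had 108, then 56 with no filter, 176 with the stricter filter, 165 with quantile normalization, 165 with the trended fit, 1231 with array weights, 61 with the covariate and 6 on arrays of low Y-linked signal (39 to 209). Against Rassf1a-/- it had 1, then 0 with no filter, with quantile normalization, with the compared genotypes alone or on arrays of low Y-linked signal, 55 with the stricter filter, 74 with arrays centred on their medians, 68 with the trended fit and 1979 with array weights (0 to 209). Against Sav1+/- it had 110, then 53 with no filter, 185 with the stricter filter, 50 with centred arrays, 173 with the trended fit or the covariate, 55 with array weights, 1 with the compared genotypes alone and 0 on arrays of low Y-linked signal (27 to 479). The averaged Rassf1a difference had 293, then 444 with the stricter filter, 800 with array weights and 80 on arrays of low Y-linked signal (192 to 572). The averaged Sav1 difference had 3, then 1 with no filter, 19 with the stricter filter or quantile normalization, 18 with the trended fit, 1517 with array weights and 0 with the covariate or on arrays of low Y-linked signal (1 to 89). The interaction had 0 (0 to 1), and the Y-linked classes had 622 (464 to 739). Fewer arrays enter where genotypes or arrays are left out. For the other settings the cause was not tested. Centring the arrays moved the median of all genes by up to 0.107. Array signal, with no background measure in these values, limits what the dim genes can show.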
